A study of Mus musculus with 3 samples.

Results

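Mst1r encodes a receptor tyrosine kinase of the MET family, and gene expression was compared between Hepa1c1c7 cells transfected with a vector carrying Mst1r and cells transfected with the empty vector. Hepa1c1c7 is an established line from a mouse hepatoma, a tumour of liver cells. The empty vector culture received pCMV6-Kan/Neo, the Mst1r culture a plasmid with the Mst1r coding sequence, and a further culture a plasmid with Slpi, a secreted protease inhibitor. Each culture received 2 µg of vector with the HilyMax reagent and was examined after 24 h. Each group was 1 culture on 1 single-colour Agilent array, so no difference has a replicate check and no test between groups could be made. The Slpi array shares the empty vector array as its control, and its values are therefore only set beside those of the Mst1r array.

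The comparison covered 14152 genes and unnamed transcripts of the 45616 on the array, of which 9409 carried a gene symbol. A spot entered when it held no control probe, lay outside the upper rows of the array, and was well above background on both arrays. The upper rows, which held 33.2% of the non-control probes, were left out because stray bright spots lie there. The processed signal, which is the spot intensity after background subtraction, was divided by its 75th percentile on each array, taken over every probe that is no control. These percentiles were 268 (empty vector) and 229 (Mst1r vector). A gene is its brightest reliable probe, and each difference below is log2 of scaled signal, Mst1r vector minus empty vector. The error after a difference is the SD that repeated spots of 1 probe on 1 array give for it, and it covers no variation between cultures.

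Interferons are secreted signals of the antiviral defence. They act through JAK kinases and STAT factors on promoter sites known as the interferon-stimulated response element, or ISRE, and as the STAT site. Their targets include guanylate-binding and immunity-related GTPases, antiviral enzymes and antigen presentation genes, and SOCS proteins feed back on the pathway. Sterol synthesis runs from acetyl-CoA to cholesterol and is switched by SREBP-2, the product of Srebf2. Immediate early genes such as Egr1 and Fos encode transcription factors that respond within minutes to growth factor receptors.

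The ISRE core was searched as GAAANNGAA and the STAT site as TTCNNNGAA, on both strands, in the RefSeq promoter windows of GRCm38.p6, each from 250 bases before to 50 bases after a start. Both motifs share their last letters and can overlap. Promoters of 5 genes that were higher on the Mst1r array are shown, because these genes belong to the interferon lists described below. Capitals mark the ISRE core in the first 4 and the STAT site in Socs3, and all windows are written 5′ to 3′ on the strand of the gene. They lie at chr3:142496684-142496983 (Gbp5, plus strand), chr11:58199306-58199605 (Igtp, plus), chr19:34607707-34608006 (Ifit3b, plus), chr12:26456403-26456702 (Rsad2, minus) and chr11:117969317-117969616 (Socs3, minus).
Gbp5: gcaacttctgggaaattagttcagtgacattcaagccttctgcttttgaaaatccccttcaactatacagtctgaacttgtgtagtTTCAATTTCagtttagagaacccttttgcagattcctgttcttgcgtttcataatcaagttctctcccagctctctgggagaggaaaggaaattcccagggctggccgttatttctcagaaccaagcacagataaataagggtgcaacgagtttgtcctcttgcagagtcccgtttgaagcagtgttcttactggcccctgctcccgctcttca
Igtp: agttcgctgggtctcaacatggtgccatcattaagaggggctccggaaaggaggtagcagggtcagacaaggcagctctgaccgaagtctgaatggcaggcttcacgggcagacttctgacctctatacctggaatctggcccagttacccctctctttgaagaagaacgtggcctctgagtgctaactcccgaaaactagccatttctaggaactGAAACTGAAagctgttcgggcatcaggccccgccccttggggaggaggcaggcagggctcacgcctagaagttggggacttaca
Ifit3b: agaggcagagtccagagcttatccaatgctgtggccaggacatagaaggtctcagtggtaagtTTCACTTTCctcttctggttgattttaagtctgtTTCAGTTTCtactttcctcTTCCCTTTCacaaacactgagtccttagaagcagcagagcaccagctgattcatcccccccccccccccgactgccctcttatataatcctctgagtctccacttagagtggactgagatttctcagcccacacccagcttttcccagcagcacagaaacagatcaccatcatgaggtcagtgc
Rsad2: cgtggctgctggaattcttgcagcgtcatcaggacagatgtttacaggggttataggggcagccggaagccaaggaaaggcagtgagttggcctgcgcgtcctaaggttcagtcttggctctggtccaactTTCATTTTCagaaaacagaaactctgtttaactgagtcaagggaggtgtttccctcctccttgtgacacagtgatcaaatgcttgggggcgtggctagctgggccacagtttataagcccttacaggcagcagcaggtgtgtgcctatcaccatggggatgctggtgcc
Socs3: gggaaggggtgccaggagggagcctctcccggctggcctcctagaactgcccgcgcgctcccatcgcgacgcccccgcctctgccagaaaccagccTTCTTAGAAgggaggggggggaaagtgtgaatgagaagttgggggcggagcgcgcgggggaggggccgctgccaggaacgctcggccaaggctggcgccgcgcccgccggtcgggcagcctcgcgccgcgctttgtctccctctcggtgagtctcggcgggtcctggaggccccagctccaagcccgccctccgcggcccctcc

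The ISRE core was in 8.56% of all promoter windows and in at least 1 window of 9.76% of all genes with a promoter. It was in a window of all 6 reliable interferon-induced GTPase genes that had one, and of 11 of 19 antiviral interferon-stimulated genes (57.9%). The STAT site was in 8.3% of all windows and in a window of 9.55% of all genes, and in windows of 6 of 17 interferon signalling genes (35.3%). Among genes at least 2-fold higher on the Mst1r array the ISRE core was in windows of 17 of 88 (19.3%), and among those at least 2-fold lower in 4 of 18 (22.2%). Such a match is a description of letters and not a site of binding.

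The transfected genes were examined first. The single Mst1r probe stayed at background on all 3 arrays, at signals of 4.15 (empty vector), 4.08 (Mst1r vector) and 3.70 (Slpi vector). Where this probe lies relative to the cloned coding sequence is not given in the sources used here, so it does not check the label. The brighter Slpi probe read 6460 with empty vector, 3843 on the array labelled Mst1r and 6680 on the array labelled Slpi. The difference between the Mst1r and empty vector arrays was -0.52 ± 0.12, whereas the dimmer Slpi probe gave 106, 91.7 and 85.8 and a difference of 0.02 ± 0.19. The Slpi array differed from empty vector by 0.13 ± 0.12 on the brighter Slpi probe and by -0.23 ± 0.19 on the dimmer, so neither probe showed Slpi clearly higher there. Below, Mst1r array and Slpi array mean the arrays labelled so.

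The cells were also compared with their label. Of 9 hepatocyte markers with a probe in the rows used, 3 were well above background on both arrays, and Apoa1, Ahsg, Serpina1a, Apoh, Ttr and Hnf4a were not on either. In the rows left out, Krt18 (150330 with empty vector and 128000 with Mst1r vector), Trf (48573 and 35784) and Afp (19822 and 16911) were on both. There, Serpina1a was well above background with empty vector only, Ttr with Mst1r vector but not with empty vector, and Hnf4a with neither. Summed signal of the hepatocyte markers, before scaling, was 75547 with empty vector and 66493 with Mst1r vector, of which the keratin Krt8 made 69776 and 60684. Of 5 leukocyte markers 1 was well above background on each array, and Ptprc, Adgre1 and Nkg7 were on neither. Among leukocyte markers in the rows left out, Csf1r (2825 with empty vector and 3293 with Mst1r vector), Cd14 (1119 and 858) and Cd3e (520.03 and 520.75) were well above background on both arrays. Lyz2 there (27.9 and 15.3) was so with empty vector only. Among fibroblast markers there, Dcn (41199 and 27530) differed by -0.35, Des (227 and 37.9) by -2.35 and Col3a1 (56.6 and 64.6) by 0.42. The cholangiocyte marker Krt19 there differed by -0.66, and Sox9 by 0.37 on its brighter and 0.21 on its dimmer probe. In the rows used, the summed leukocyte signal was 548 and 395, the endothelial 138 and 119, the fibroblast 6421 and 4944 and the cholangiocyte 30683 and 19314. Acta2 made 5821 and 4407 of the fibroblast sum, and Krt7 and Spp1 nearly all of the cholangiocyte sum. After scaling, the log2 differences of these sums were 0.05 (hepatocyte), -0.24 (leukocyte), 0.02 (endothelial), -0.15 (fibroblast) and -0.44 (cholangiocyte). Their part in the differences was not tested. In RNA from whole cultures, fewer cells of a type and less RNA per cell cannot be told apart.

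Most genes lay close to equal signal on both arrays, and the larger differences were mainly upward. The median difference over all genes was -0.023, and the 5th and 95th percentiles were -0.39 and 0.55. At least 1.5-fold higher were 638 genes (4.51% of all) and at least 1.5-fold lower 234 (1.65%). Of the 9409 with a gene symbol, to which the list members belong, 294 were higher and 171 lower at this fold. Those without a symbol gave 344 and 63, a more uneven split. At 2-fold the counts over all genes were 212 (1.5%) and 38 (0.269%), at 4-fold 57 and 2, and at 8-fold 12 and 1. Which direction held more genes at 1.5-fold turned with the scaling, from 638 and 234 (73.2% higher) to 464 and 406 with spike-in controls (53.3%) and 327 and 892 without scaling (26.8%). At 2-fold the higher genes were more numerous under each of these scalings.

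The error between spots was below the spread of the genes themselves at low signals and about as large among the brightest, where the median error was 0.12. It was 0.19 for a difference at log2 signals of 4 to 7, 0.15 at 7 to 11 and 0.078 above 14, and it rested on 6 to 23 repeated probes, counted over the 3 arrays, in each range between 4 and 14. The robust SD of the differences fell from 0.31 among the dimmest genes to 0.12 among the brightest, and was 0.24 and 0.085 for the Slpi array against the same control. At 2-fold, 2.58% of the dimmest genes and 0.373% of the brightest were higher. Another background correction, normexp with an offset of 50, drew dim genes toward equal. Of the 79 named genes past 1.5-fold, 32 then had a log2 difference smaller by over 1.5 times, 17 were under 1.5-fold and 0 changed sign. By position, 1.37% to 1.62% of the genes in each of 4 equal blocks of the rows used were at least 2-fold higher, against 3.54% in the rows left out.

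**Figure D1:**
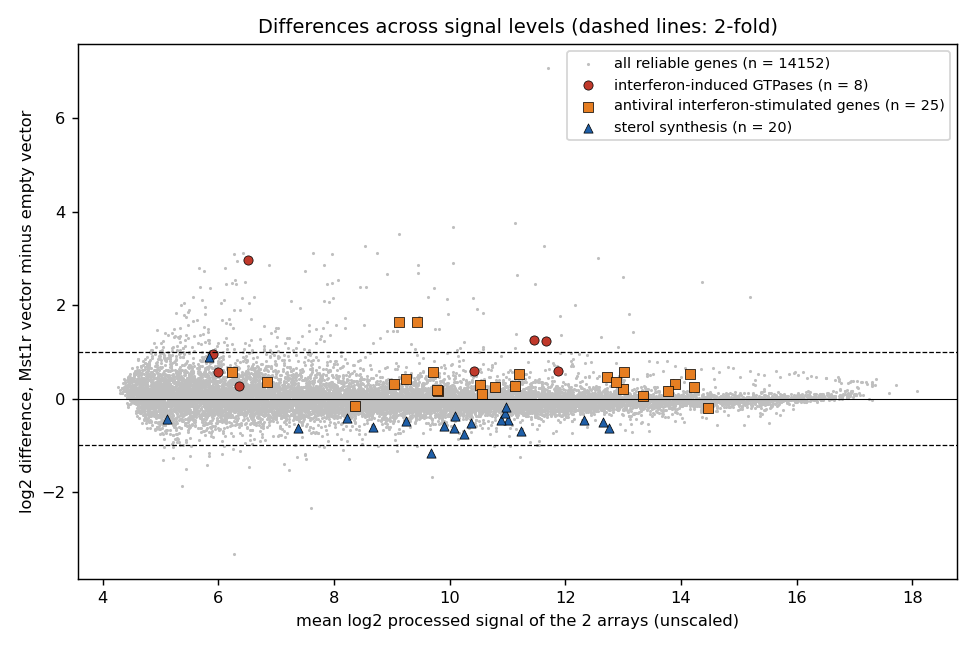
Each point is 1 of 14152 genes, with the mean log2 processed signal of both arrays on the x axis and the log2 difference, Mst1r vector minus empty vector, on the y axis. Red circles are interferon-induced GTPases, orange squares antiviral interferon-stimulated genes and blue triangles sterol synthesis genes, and the spread of the grey points narrows from left to right.

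Genes of the interferon response were higher to unequal degrees, and the interferon-induced GTPases had the highest median of the 36 lists. Lists and members were chosen with earlier results of these data known, so this rank and the shares are descriptions only. Of the 20 interferon-induced GTPases, which attack intracellular pathogens, 8 were reliable and 8 were higher, with a median of 0.77. At least 1.5-fold higher were 5 of them (62.5%, against 4.51% of all genes). Gbp5, a guanylate-binding protein, had signals of 35.3, 234 and 33.2 on the empty vector, Mst1r and Slpi arrays, a difference of 2.96 ± 0.17 (1.94 with normexp). Igtp, an immunity-related GTPase, went from 2278 to 4573 (1.24 ± 0.12) and was at 2072 on the Slpi array. Tgtp2 went from 1954 to 3996 (1.26 ± 0.14), and Gbp7 from 47.0 to 77.4 (0.95 ± 0.19, 0.59 with normexp). On the Slpi array the 8 lay between -0.15 and 0.10 of empty vector, with a median of -0.04. Guanylate-binding proteins, Tgtp, Ifit and Oas genes have near-identical copies, so these probes may read more than 1 of them.

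Antiviral interferon-stimulated genes were higher by small amounts, in 23 of 25 reliable members, with a median of 0.30. Past 1.5-fold were 2 members (8%, against 4.51% of all genes), and without scaling 17 were higher and 8 lower (median 0.07). Rsad2, which encodes the antiviral enzyme viperin, went from 342 to 906 (1.64 ± 0.15) and was at 258 on the Slpi array. Its second probe gave 55.1, 114 and 48.7 and a difference of 1.29 ± 0.19. Ifit3b, of the family that binds viral RNA, went from 426 to 1131 (1.64 ± 0.15) against 342 on the Slpi array. The ubiquitin-like Isg15 was brighter and less different, with 16427 and 20149 (0.52 ± 0.08). Oasl1, another bright member, was at 0.57 ± 0.12, and the largest differences were those of Rsad2 and Ifit3b.

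The signalling genes of the pathway were higher in 14 of 18 members, with a median of 0.26. Past 1.5-fold higher were 5 members (27.8%, against 4.51% of all genes). With spike-in scaling 11 were higher and 7 lower, and without scaling 9 and 9 (median 0.03). Ifnb1, which encodes interferon beta itself, gave 144, 383 and 122 on the empty vector, Mst1r and Slpi arrays, a difference of 1.64 ± 0.15. The feedback inhibitors were also higher. Socs3 went from 2267 to 6543 (1.76 ± 0.12) and was at 2147 on the Slpi array, and Socs1 from 134 to 318 (1.48 ± 0.15). Irf1, a transcription factor of the pathway, went from 71.8 to 126 (1.04 ± 0.19, 0.64 with normexp), and its brighter probe in the rows left out gave 3070 and 5045 (0.95 ± 0.12). The interferon gamma receptor chains Ifngr1 (-0.37 ± 0.12) and Ifngr2 (-0.29 ± 0.14) lay on the other side. Jak1, Jak2, Tyk2 and Irf3 lay within 0.07 of equal.

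Sensors of foreign nucleic acid were higher in 10 of 12 reliable members, with a median of 0.26 (7 of 12 and 0.03 without scaling). Zbp1, a sensor of Z-form nucleic acid, went from 291 to 567 (1.19 ± 0.15), and its second probe was at 55.3 on the Mst1r array and not well above background on the others. Antigen presentation by MHC class I divided differently, with 7 of 15 members higher and a median of -0.01, whose sign turned with the scaling. Its transactivator Nlrc5 went from 89.2 to 189 (1.31 ± 0.17, 0.88 with normexp), while a dimmer probe in the rows left out gave -0.22 ± 0.19. The peptide transporter Tap1 differed by 0.59 ± 0.15 on one probe and 0.66 ± 0.15 on the other. Cd274, the checkpoint ligand PD-L1, stood at 92.0, 565 and 102 on the 3 arrays and differed by 2.85 ± 0.17.

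Immediate early genes were higher in 15 of 21 reliable members, with a median of 0.38 (13 of 21 and 0.15 without scaling). Past 1.5-fold higher were 6 members (28.6%, against 4.51% of all genes). Egr1 went from 790 with empty vector to 2530 with Mst1r vector (1.91 ± 0.14), and was at 848 with Slpi vector. Egr2, of the same zinc finger family, went from 27.6 to 101 (2.11 ± 0.19, 0.90 with normexp), Fos from 160 to 319 (1.22 ± 0.15) and Csrnp1 from 1138 to 2027 (1.06 ± 0.15). Myc was at -0.02 ± 0.12 and Jund at -0.11 ± 0.12, and the matrix protein gene Ccn1 was lower, at -0.55 ± 0.12. The genes that feed back on ERK signalling were closer to equal, with 10 of 16 higher and a median of 0.16 that became negative without scaling. Dusp10, a phosphatase of MAP kinases, differed by 0.68 ± 0.19 and Dusp2 by -0.73 ± 0.19, both at signals under 70 and at 0.37 and -0.34 with normexp.

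**Figure D2:**
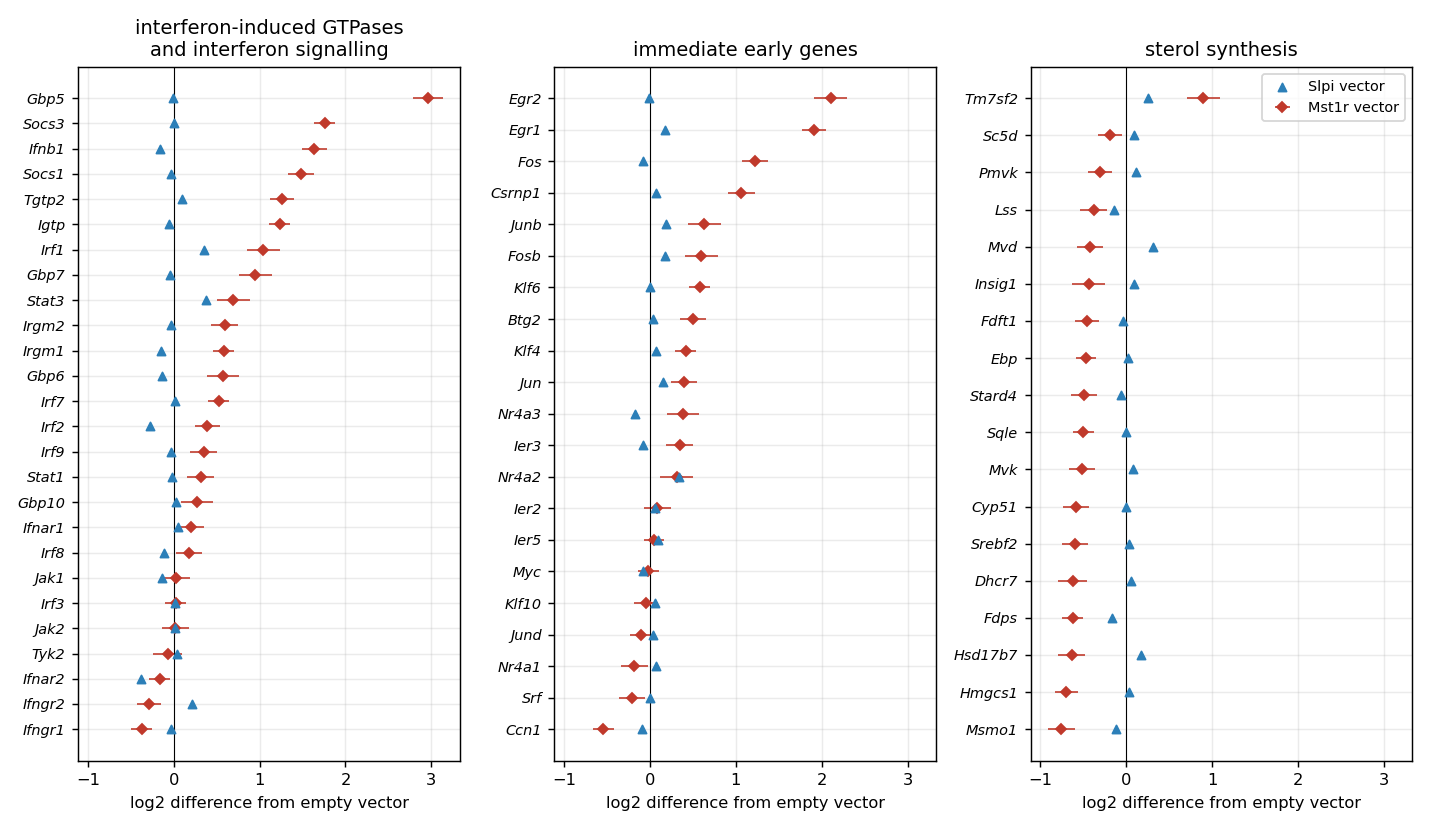
Log2 differences from empty vector of reliable members of 4 gene lists, in 3 panels, for the Mst1r array (red diamonds, bars give the error between spots) and the Slpi array (blue triangles). The red values of Gbp5 at 2.96, Egr2 at 2.11 and Msmo1 at -0.76 lie apart from the Slpi values of the same genes, which are at -0.01, -0.01 and -0.12.

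Cytokine genes were higher in most reliable members. Il6, an acute phase cytokine, gave 114, 543 and 101 on the same arrays, a difference of 2.48 ± 0.17. Its other probe, in the rows left out, gave 57.1, 301 and 48.8 (2.63 ± 0.17). Csf3, the granulocyte growth factor, went from 56.8 to 158 (1.70 ± 0.17, 1.10 with normexp). Il24 went from 66.1 to 134 (1.25 ± 0.17, 0.64 with normexp) but stood at 1107 on the Slpi array, where its probe in the rows left out was at 72.0 against 141 with empty vector. Tgfb3 was lower, from 3992 to 1796 (-0.92 ± 0.14). Of the 11 reliable cytokines and growth factors 8 were higher, 4 of them past 1.5-fold (36.4% of the list, against 4.51% of all genes).

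Chemokines, which attract leukocytes, were higher in 8 of 12 members, with a median of 0.16 that was negative without scaling. Ccl4 went from 35.6 to 130 (2.10 ± 0.17, 1.10 with normexp), with 65.99 and 225 on its other probe in the rows left out. The interferon-induced Cxcl10 went from 5661 to 10333 (1.10 ± 0.12) and Ccl7 from 4560 to 6708 (0.79 ± 0.12), whereas the neutrophil attractant Cxcl5 was lower, from 11460 to 6104 (-0.68 ± 0.12). The targets of NF-kB as a list had a median of 0.05, positive in 10 of 18 members, and negative with spike-in scaling (-0.05) or none. Besides Il6, the transcription factor Cebpd went from 878 to 2646 (1.82 ± 0.14), and the inhibitor Nfkbie was lower, at -0.65 ± 0.15. The other 8 higher members lay between 0.04 and 0.47.

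Genes of sterol synthesis had the lowest median of the 36 lists, which were chosen with earlier results of these data known. Of 24 listed genes 20 were reliable and 19 were lower, with a median of -0.50. Lower past 3 errors were 14 of the 20, against 453 of all 14152 genes. At least 1.5-fold lower were 8 (40%, against 1.65% of all genes). Msmo1, an oxidase of sterol methyl groups, gave 1715, 865 and 1496 on the empty vector, Mst1r and Slpi arrays (-0.76 ± 0.15), and its probe in the rows left out 6375, 3670 and 6197 (-0.57 ± 0.12). Hmgcs1, which makes the precursor HMG-CoA, gave 3300, 1735 and 3188 (-0.70 ± 0.14), and Srebf2 gave 542, 304 and 527 (-0.60 ± 0.15). The median of the list on the Slpi array was 0.03. Tm7sf2, a sterol reductase, stood alone on the higher side, at 0.90 ± 0.19 and dim signals of 45.4 and 72.0 (0.39 with normexp). The list median stayed negative under each scaling tried, between -0.73 and -0.44.

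Fatty acid synthesis genes were lower in 10 of 12 members with a median of -0.24, among them Scd2, a desaturase (-0.53 ± 0.12), Acaca, the first enzyme of the route (-0.51 ± 0.15), and the acyltransferase Dgat2 (-0.52 ± 0.15). Fads2, another desaturase, was the only member past 1.5-fold lower (8.33% of the list, against 1.65% of all genes). It was at -0.59 ± 0.19 and signals of 81.6 and 46.1 (-0.29 with normexp).

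Cell division genes were lower together and by little. Of 26 mitosis genes 25 were lower, none by 1.5-fold or by 3 of the errors used, with a median of -0.22. Differences at the same spot position gave a smaller error, 0.048 at log2 signals of 11 to 14, from 8 probes. The count was not repeated with that error. Cdk1, the kinase that starts mitosis, went from 5037 to 3394 (-0.34 ± 0.12), Mki67 from 7049 to 4750 (-0.34 ± 0.12) and Top2a from 9828 to 6650 (-0.33 ± 0.12), and Cdc20 alone was higher, at 0.06 ± 0.12. DNA replication genes were lower in 23 of 25 members with a median of -0.12, led by Cdc6 at -0.39 ± 0.14. The median difference was -0.06 among genes of log2 signal 10 to 12 and -0.037 among those over 12, where Cdk1, Mki67 and Top2a lie. A small part of these values is therefore shared by other genes as bright. Replication-dependent histones had a median of 0.09 that turned negative with spike-in scaling or none, with H2bc4 at 0.80 ± 0.12. On the Slpi array the mitosis and replication medians were -0.03 and -0.0028.

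**Figure D3:**
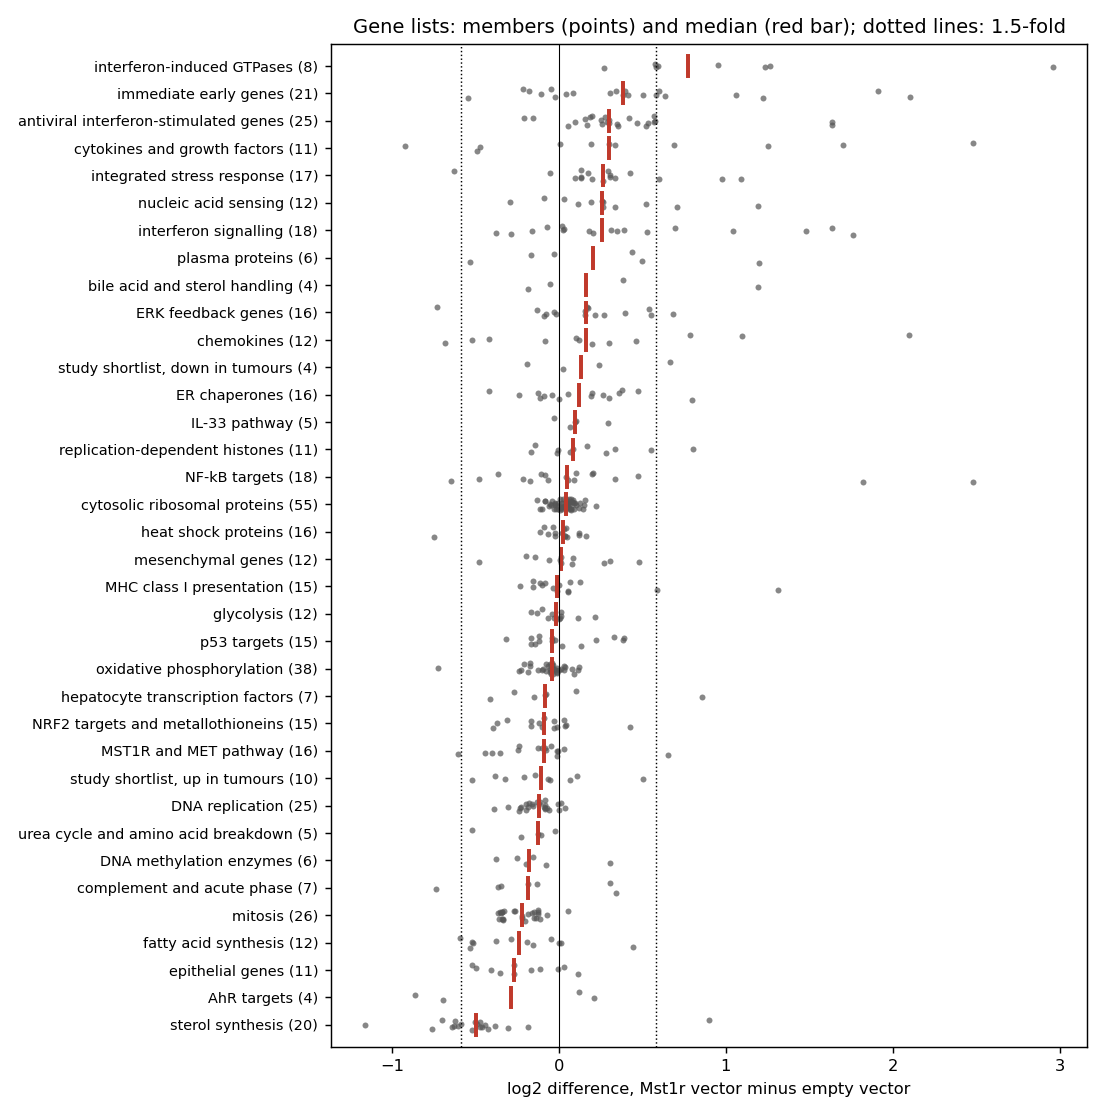
Log2 differences, Mst1r vector minus empty vector, of the reliable members (grey points) of 36 gene lists, with the number of members after each name, the list median as a red bar and 1.5-fold as dotted lines. The medians run from 0.77 in interferon-induced GTPases to -0.50 in sterol synthesis, and the 55 ribosomal proteins lie between -0.13 and 0.23.

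Stress genes did not move as a block. The integrated stress response, which follows ATF4, was higher in 15 of 17 members with a median of 0.26 (9 of 17 and 0.03 without scaling), led by Trib3, a pseudokinase (1669 to 3030, 1.09 ± 0.14), and Ppp1r15a, a phosphatase subunit (2963 to 4979, 0.98 ± 0.12). Ddit3, the factor CHOP, differed by 0.60 ± 0.15. Chaperones of the endoplasmic reticulum had a median of 0.12, negative without scaling, with Hyou1 at 0.80 ± 0.19 on signals of 43.1 and 64.0 (0.29 with normexp). A second reliable Hyou1 probe gave 48.2 and 48.1 (0.23 ± 0.19), and a probe in the rows left out 0.88 ± 0.19. Heat shock proteins had a median of 0.03 that turned negative with spike-in scaling or none, and Stip1, a co-chaperone, was lower, at -0.75 ± 0.12. NRF2 targets and metallothioneins were lower in 11 of 15 members (median -0.09), and p53 targets in 9 of 15 (median -0.04, 0.01 under a percentile scaling and with normexp), with none past 1.5-fold in either list.

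Liver genes gave few reliable spots. Of 29 plasma protein genes 6 were reliable, with 3 higher, a median of 0.20 (-0.026 without scaling) and Alb, albumin, at 3095 and 3575 (0.44 ± 0.12). Hpx, a haem carrier, was at 39.0 and 76.5 (1.20 ± 0.19, 0.47 with normexp). Complement and acute phase genes had 5 of 7 members lower (median -0.19), with ceruloplasmin, Cp, at -0.74 ± 0.12. Liver transcription factors had 5 of 7 lower (median -0.08) with Nr1i3, the receptor CAR, at 0.86 ± 0.19 and signals under 40 (0.30 with normexp). Of 4 bile acid and sterol handling genes, Abcc2, an export pump, differed by 1.19 ± 0.17. All 5 reliable urea cycle and amino acid genes were lower (median -0.12), none by 1.5-fold. Of the 4 aryl hydrocarbon receptor genes, the receptor Ahr went from 1642 to 771 (-0.86 ± 0.15) and its target Cyp1a1 from 1644 to 866 (-0.70 ± 0.15), while Arnt and Tiparp were at 0.21 and 0.12.

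Housekeeping groups stayed near equal. Ribosomal proteins had a median of 0.04 over 55 members, which turned to -0.06 with spike-in scaling and -0.19 without scaling, and none was past 1.5-fold. Oxidative phosphorylation genes had a median of -0.04 with 30 of 38 lower, slightly positive under one percentile scaling (0.01), and Ndufb2, a subunit of complex I, was lower, at -0.72 ± 0.12. Glycolysis had a median of -0.01 over 12 members, with a sign that turned with the scaling. Epithelial genes were lower in 9 of 11 members (median -0.27), among them Krt7, a keratin (-0.50 ± 0.12), and mesenchymal genes had a median of 0.01 that turned negative with spike-in scaling or none.

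Genes of the receptor's own pathway were lower in 14 of 16 reliable members, with a median of -0.09. Under another percentile scaling and with normexp 10 of 16 were lower, with a median of -0.04. Gab1, an adaptor of MET family receptors, was at -0.60 ± 0.17 (-0.39 with normexp), the activating protease Hpn, hepsin, at -0.44 ± 0.15 and Met at -0.01 ± 0.15. Cbl, a ubiquitin ligase, was at 0.65 ± 0.19 on signals of 23.9 and 32.0 (0.20 with normexp). A brighter Cbl probe in the rows left out went the other way, at 413 and 262 (-0.43 ± 0.15). Of the IL-33 pathway 5 of 7 genes were reliable, with Il1rap, the receptor's accessory chain, at 0.30 ± 0.19 and none past 1.5-fold, and a median of 0.10 that turned negative with spike-in scaling (-0.0027) or none. The Il33 probe in the rows used stayed at background, at 8.10, 4.82 and 4.23 on the empty vector, Mst1r and Slpi arrays. Another Il33 probe, in the rows left out, gave 8.41, 165.8 and 3.79 and was well above background on the Mst1r array only. The 3 probes of the IL-33 receptor Il1rl1 were not well above background on any array. DNA methylation enzymes were lower in 5 of 6 members with a median of -0.18. The genes shortlisted by the study as up in tumours had a median of -0.10 over 10 members, and those down in tumours 0.13 over 4, which was -0.10 without scaling. That shortlist includes Extl1, a glycosyltransferase of heparan sulphate synthesis, at signals of 23.9 and 32.4 (0.67 ± 0.19, 0.22 with normexp). The other Extl1 probe in the rows used was at background, at 3.98, 3.89 and 3.59 on the empty vector, Mst1r and Slpi arrays.

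The genes with the largest differences were mostly outside these lists. Of the 212 at least 2-fold higher, 94 carried no symbol and are not named here. AF067063 went from 310 with empty vector to 35358 with Mst1r vector and was at 321 with Slpi vector, a difference of 7.06 ± 0.12. Its probe lay close to the rows left out, and its second probe, among those rows, was at 41.5 on the Mst1r array and not well above background on the others. Cep85l, a centrosomal protein gene, went from 35.3 to 174 (2.53 ± 0.17, 1.47 with normexp) and was at 34.2 on the Slpi array, like Gbp5 and Il6 close to empty vector there. Tcstv3 went from 47.3 to 292 (2.85 ± 0.17) with 57.7 on the Slpi array.

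Other large differences came with a smaller one on the Slpi array. Sprn, a prion-like protein gene, gave 178, 1727 and 789, which was 3.51 ± 0.15 above empty vector on the Mst1r array and 2.23 on the Slpi array. Qrich2 gave 73.6, 543 and 220 (3.11 ± 0.17 and 1.66), and its second probe stayed at background throughout. The cornified envelope genes Sprr2k (3595, 18452 and 9219) and Sprr2b (9622, 46492 and 23902), close copies of each other, differed by 2.59 ± 0.10 and 2.50 ± 0.10 on the Mst1r array and by 1.44 and 1.39 on the Slpi array. Rpe65, Gask1b, Akr1d1, Cyp2t4 and Cd28 showed the same order of the 3 arrays, at 2.49 to 2.94 and 1.05 to 1.70. With normexp Rpe65 was at 1.70, Akr1d1 at 1.38 and Cd28 at 1.49. Akr1d1, a bile acid reductase, was -0.07 ± 0.19 on its probe in the rows left out. All these genes had the empty vector array as their lowest value.

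On the lower side, Padi4, an enzyme that converts arginine to citrulline, gave 266, 22.4 and 237 on the empty vector, Mst1r and Slpi arrays, a difference of -3.34 ± 0.17 (-1.83 with normexp). Its other probe stayed at background throughout. Serpinb7, a protease inhibitor of skin, gave 471, 79.5 and 439 (-2.33 ± 0.17), Clec4d, a lectin receptor, 85.7, 19.96 and 61.5 (-1.87 ± 0.19, -0.84 with normexp) and the basal keratin Krt14 gave 1602, 429 and 1319 (-1.67 ± 0.15). On the Slpi array these 4 genes lay between -0.40 and -0.02 of empty vector. Mindy2 (-1.52 ± 0.19) and Amer3 (-1.42 ± 0.19) were also low on the Slpi array, at -1.68 and -1.07. Mindy2's other probes, in the rows left out, gave -0.48 and -0.10. Of the others, Hs3st6, a heparan sulphate sulphotransferase, differed by -1.19 ± 0.17 and by -1.25 ± 0.19 on its second probe, and Nexn, an actin-binding protein gene, by -1.32 ± 0.19 and -0.84 ± 0.19. Mab21l4, Gm10639, the metalloproteinase gene Mmp24, the lactate dehydrogenase gene Ldhd, C1qtnf3 and the ubiquitin ligase Cblc lay between -1.45 and -1.19. With normexp, Mindy2 was at -0.55, Nexn at -0.46, Ldhd at -0.52, C1qtnf3 at -0.61, Cblc at -0.64, Amer3 at -0.73 and Mab21l4 at -0.89.

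**Figure D4:**
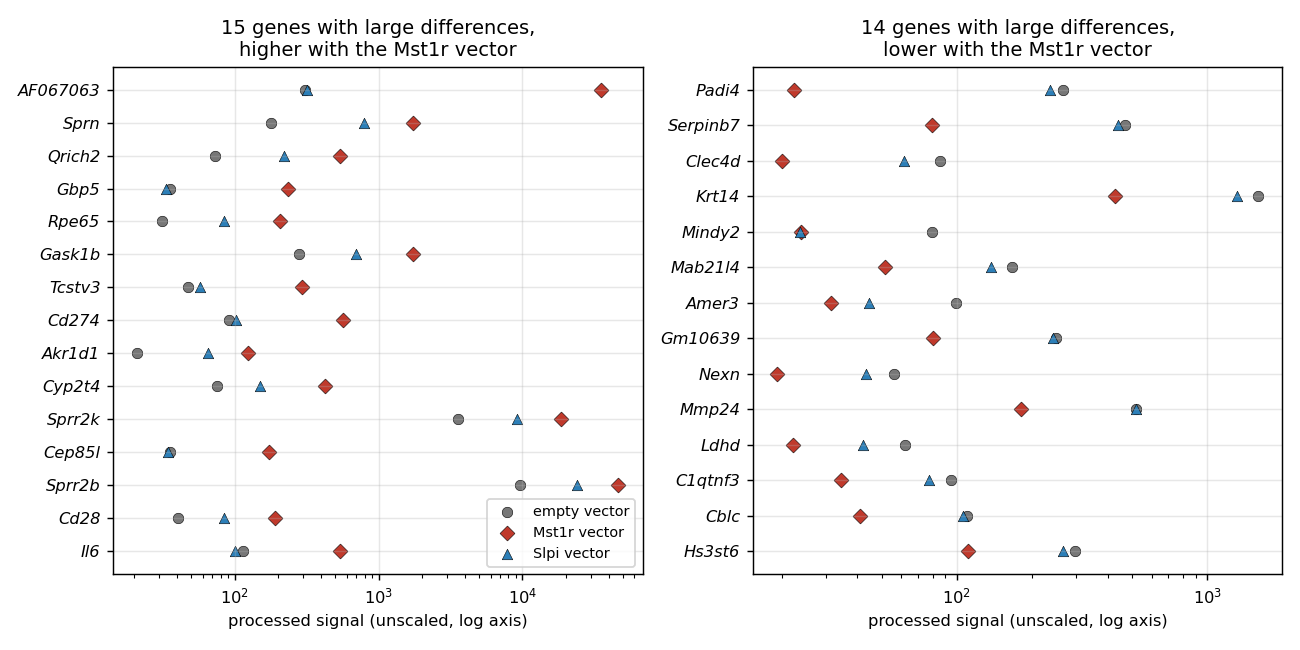
Processed signal on a log axis, before scaling, of the genes with the largest differences in each direction that are named in the text, on the empty vector (grey circles), Mst1r vector (red diamonds) and Slpi vector (blue triangles) arrays. AF067063 spans from 310 to 35358, and for Sprn, Qrich2 and the Sprr2 genes the Slpi value lies between the other arrays.

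A second reliable probe, where a gene had one, repeated the measurement on the same arrays. Such a probe existed for 2283 genes, and it lay on the same side as the first in 68.8%. Of 23 genes whose first probe was at least 1.5-fold higher, the second was also higher in 19 and past 1.5-fold in 8. Of 20 whose first probe was at least 1.5-fold lower, the second was lower in 16 and past 1.5-fold in 10. No second probe of these 43 genes was past 1.5-fold in the other direction. Both probes of a gene read the same RNA on the same array, so they repeat the measurement and not the culture.

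**Figure D5:**
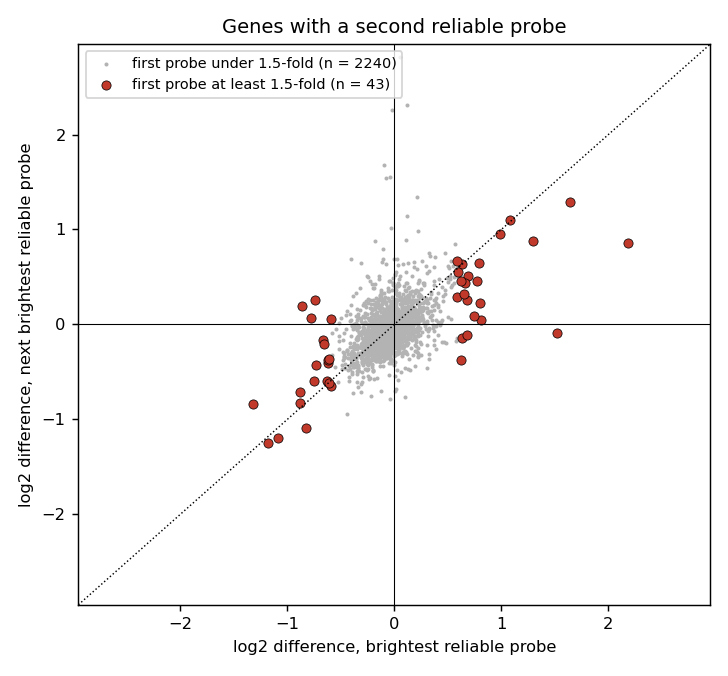
Log2 difference of the next brightest reliable probe (y axis) against that of the brightest (x axis) for 2283 genes, with the dotted line at equal values. Red points are the 43 genes whose brightest probe was at least 1.5-fold apart, and most of them lie in the quadrants of shared direction and below the size of the first probe.

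Genes well above background on 1 of both arrays have a bound instead of a difference. In the rows used there were 1054 of them, 351 on the Mst1r array and 703 on the empty vector array. The bound was at least 2-fold higher for 95 (9.01%) and at least 2-fold lower for 26 (2.47%), with the dim signal raised, where it was lower, to the weakest one well above background on that array. Batf2, a transcription factor of the interferon response, was at 17.0, 1029 and 17.5 on the 3 arrays, at least 63.7-fold higher. The interferon-induced DNA sensor genes Ifi202b (4.48, 247 and 4.10) and Ifi205 (15.1, 147 and 10.7) were at least 15.3-fold and at least 9.12-fold higher. Ubd, a ubiquitin-like modifier, was at least 5.16-fold higher and the cytokine gene Il19 at least 4.74-fold, from 4.01 to 76.4. These 5 genes were not well above background on the Slpi array either. Among genes with a symbol, the largest bounds on the lower side were smaller, at least 3.05-fold for the bicarbonate transporter Slc4a4 (67.4 to 17.1). The next were 2.70-fold for Chrna10, 2.65-fold for E230016K23Rik, 2.61-fold for Olfr695 and 2.46-fold for Zbtb37. On the Slpi array Slc4a4 (63.3) and Zbtb37 (28.0, against 54.3 with empty vector) were well above background. Chrna10 (3.66), E230016K23Rik (3.59) and Olfr695 (4.34) were not, so only the empty vector array showed these genes.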

How the data were processed

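Total RNA (100 ng per the labels) from 1 culture per vector was hybridised to single-colour Agilent mouse arrays, all on 1 slide and in 1 scan, and where an array sat on it cannot be told apart from its vector. The deposited intensities were extracted by the authors with Feature Extraction 12.0.3.1 per the file headers, a version other than the one in the methods, which subtracted background and spatial trend. Deposited flags of well above background, outlier and saturation were also used, and 0 spots were saturated. Here, 81 outlier spots were left out, log2 signals were scaled to the 75th percentile, and probes were named through RefSeq transcripts. The error was taken from 300 probes printed 10 times. Named genes were the study's genes, the 15 largest differences per direction (brighter signal over 50, over 3 errors), up to 4 members of each of 36 lists, and 5 bounds per direction. Some genes that these rules name are not reported here, and counts and medians include them. The members and lists were chosen with earlier results of these data known. Alternatives covered scaling, background correction, rows, signal minimum, probe choice and the deposited value table. Python 3.11.15, pandas 2.3.3 and limma 3.58.1 were used. The steps were tested on simulated data.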

Additional observations from a re-analysis of the deposited data

Results flagged for a closer look

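A signal appeared on an Il33 probe in the upper rows, which the comparison does not use. This probe read 165.8 on the Mst1r vector array and was well above background there and not on the empty vector array (8.41) or the Slpi vector array (3.79). The Il33 probe in the rows used was at background, so the probes differ.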

How the results depend on the processing

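No paired analysis was possible because each group held 1 array. The number of arrays limits the precision, the errors cover spots and not cultures, and genes near background have only bounds. At 1.5-fold higher, 638 genes became 327 without scaling, 307 with normexp and quantile normalization, 1135 with all rows and 152 with a signal over 200 on both arrays. At 1.5-fold lower, 234 became 892, 73, 532 and 68 under these settings and 406 with spike-in scaling. At 2-fold higher, 212 became 106 with normexp, 454 with all rows and 52 with a signal over 200. At 2-fold lower, 38 became 89 without scaling, 6 with normexp, 166 with all rows, 25 with fewer rows and 9 with a signal over 200. The filter and the row settings change the number of genes compared, and the cause of the other moves was not tested. With 2 errors in place of 3, 870 genes higher and 453 lower became 1584 and 1319. Errors from differences at the same spot position were 0.06531, 0.03748, 0.04818 and 0.0315 in the 4 ranges above a log2 signal of 7, smaller than those used. They rested on 4, 2, 8 and 262 repeated probes.

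Relative to all genes, 419 of the 432 values of list medians stayed within the error, taken as the median error of the list's single genes. A list median below that error could change by its whole size and still be counted so. The epithelial median was also counted so, though it went from -0.27 to -0.09 with normexp before the median of all genes was subtracted. Many of the 419 could not move. Leaving out the scaling, or scaling by the median, another percentile or spike-ins, shifts every gene by the same amount. The deposited value table gave nearly the same values for all genes. The interferon-induced GTPase median was 1.067 with all rows, 0.9775 with fewer rows and 0.9614 with a signal over 200. The cytokine median was 0.07379 with all rows and 0.05557 with a signal over 200, and that of immediate early genes 0.1318 with a signal over 200. The AhR median was -0.1032 with all rows and -0.6696 with fewer rows. Plasma proteins turned to -0.07357 with all rows and -0.00412 with fewer rows, and complement genes to 0.2629 with all rows. Bile acid genes were at 9.98e-05 with all rows, and ribosomal proteins at 0.01788 with normexp. Of 170 single genes 63 moved by more than the error with normexp, all 170 without scaling and at most 12 under any other setting. Slpi turned to 0.01711 with fewer rows, where its other probe stands for it, and Cbl to -0.4287 and Shmt2 to 0.1445 with all rows. The median of all genes was -0.023 as reported, -0.25 if unscaled and -0.13 if scaled by spike-ins. The deposited value table gave the same counts.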
